A study of Mus musculus with 12 samples.

Results

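The genes described here are 10 regulators of the cell cycle: the cyclins Ccnd1, Ccnd2, Ccne2, Ccna2 and Ccnb1, the cyclin-dependent kinases (CDKs) Cdk1, Cdk2 and Cdk4, and the CIP/KIP inhibitors Cdkn1b and Cdkn1c. They were picked by gene symbol, with earlier results of these data known, from 48795 genes that the files list by Ensembl identifier. All 10 were matched to an identifier, and all 10 were among the 11228 genes whose counts were high enough to be tested.

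RNA was sequenced from bone marrow derived macrophages (BMDMs), which are bone marrow cells grown in culture with macrophage colony-stimulating factor (M-CSF). The cells came from WT mice, with the strain label C57BL/6, and from mice of the line C57BL/6NJ-Acod1em1(IMPC)J/J, which are Acod1-/- (Acod1 encodes the enzyme that makes itaconate). Cells of each genotype received vehicle, particulate matter (PM) at 20 μg/cm² for 24 hours, or PM after 2 hours with 4-octyl itaconate (OI), a form of itaconate that enters cells, at 0.25 mM. Each of the 6 groups had 2 libraries, 12 in all, and no group received OI without PM. The labels do not say that the 2 libraries of a group came from separate mice or cultures, so p-values measure only the spread between these libraries, which may be technical. The methods name C57BL/6NJ for the WT mice, the background of the Acod1-/- line.

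The libraries held 33616577 to 36817898 counts, with a median of 34480636. The 2 libraries of a group differed by more than counting noise in every group, with a chi-square per degree of freedom of 2.61 to 8.32 in 4 groups, 27.3 in WT with PM and 58.5 in WT with OI+PM. Acod1 was counted in the Acod1-/- libraries too, at 1.22 and 1.26 CPM (counts scaled to the size of the library) with vehicle, 94.1 and 108 with PM, and 24.4 and 26.8 with OI+PM. In WT it was at 1.84 and 2.49, 170 and 181, and 32.6 and 57.1. The genotype difference for Acod1 did not pass the test under any treatment (adjusted p of 0.492, 0.0807 and 0.0509, edgeR), and a count per gene cannot show whether part of the gene is missing, so it does not check the knockout labels. All 7 macrophage markers were counted in every library, from Lyz2 at 9084 CPM or more and Cd68 at 1315 or more down to Fcgr1 and Mertk at 26.6 and 25.9 or more. The T cell genes Cd3e and Cd3g had no count, Cd8a had at most 1, and Cd4 had 10 to 46.

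Cells advance through the division cycle when CDKs are switched on by cyclins. D-type cyclins with Cdk4 act in G1 as growth factor signals arrive, E-type cyclins with Cdk2 act at the entry into S phase, cyclin A2 acts in S phase and G2, and cyclin B1 with Cdk1 drives mitosis. The CIP/KIP proteins p27 (Cdkn1b) and p57 (Cdkn1c) bind cyclin and CDK complexes and hold them inactive. BMDMs still divide in culture in response to M-CSF, which induces D-type cyclins in macrophages. In bulk RNA a lower level can come from fewer cells in a phase or from less RNA per cell, and these cannot be told apart here.

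The question put to the genes was which of these regulators differed with PM and with OI, and whether the effects differed between genotypes. Values are CPM scaled by TMM factors for the level of a gene across libraries, and CPM per kilobase of exonic length where genes are compared with each other. A gene passed the test at an adjusted p of 0.05 or less over all 11228 genes (quasi-likelihood test of edgeR, adjusted by Benjamini-Hochberg), and a differentially expressed gene (DEG) also differed by at least 1 on the log2 scale. For each gene, 1 spread was estimated from all 12 libraries, so SEs and p-values do not come from the compared groups alone. The groups differed in spread, as the chi-square values above show. SEs and p-values may therefore be too small for comparisons with WT OI+PM or WT PM libraries. The comparisons share libraries with each other: the PM libraries of a genotype enter both its PM and its OI comparison.

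With OI, Ccna2, Ccnb1 and Ccne2 fell furthest of the 10 genes, Ccnd1 and Ccnd2 fell less, Cdk4 and Cdkn1b did not pass the test, and Cdkn1c rose. This order is not one of all cyclins by phase. Ccne1, a cyclin of S phase entry outside the 10, fell less than Ccnd1 in WT and more in Acod1-/-. In OI+PM against PM, 8 of the 10 genes passed the test in WT, 7 lower and 1 higher, where 43.9% of all genes tested passed in either direction (22.6% lower and 21.3% higher). In Acod1-/- cells 8 of the 10 passed as well, 7 lower and 1 higher, against 34.6% of all genes (20.6% lower and 13.9% higher). As DEGs, 6 genes were lower and 1 was higher in each genotype, where 10.8% of all genes were DEGs in WT (8.49% lower and 2.3% higher) and 9.83% in Acod1-/- (7.98% lower and 1.85% higher). The median log2 fold change of the 10 genes was -1.78 in WT and -1.69 in Acod1-/-, and that of all genes tested was 0.02 and 0.00. The counts of lower genes include Ccnb1, which was above the filter of 1.5 CPM in no OI+PM library. It was tested only through the libraries without OI and had to be lower, so these counts are a description.

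**Figure D1:**
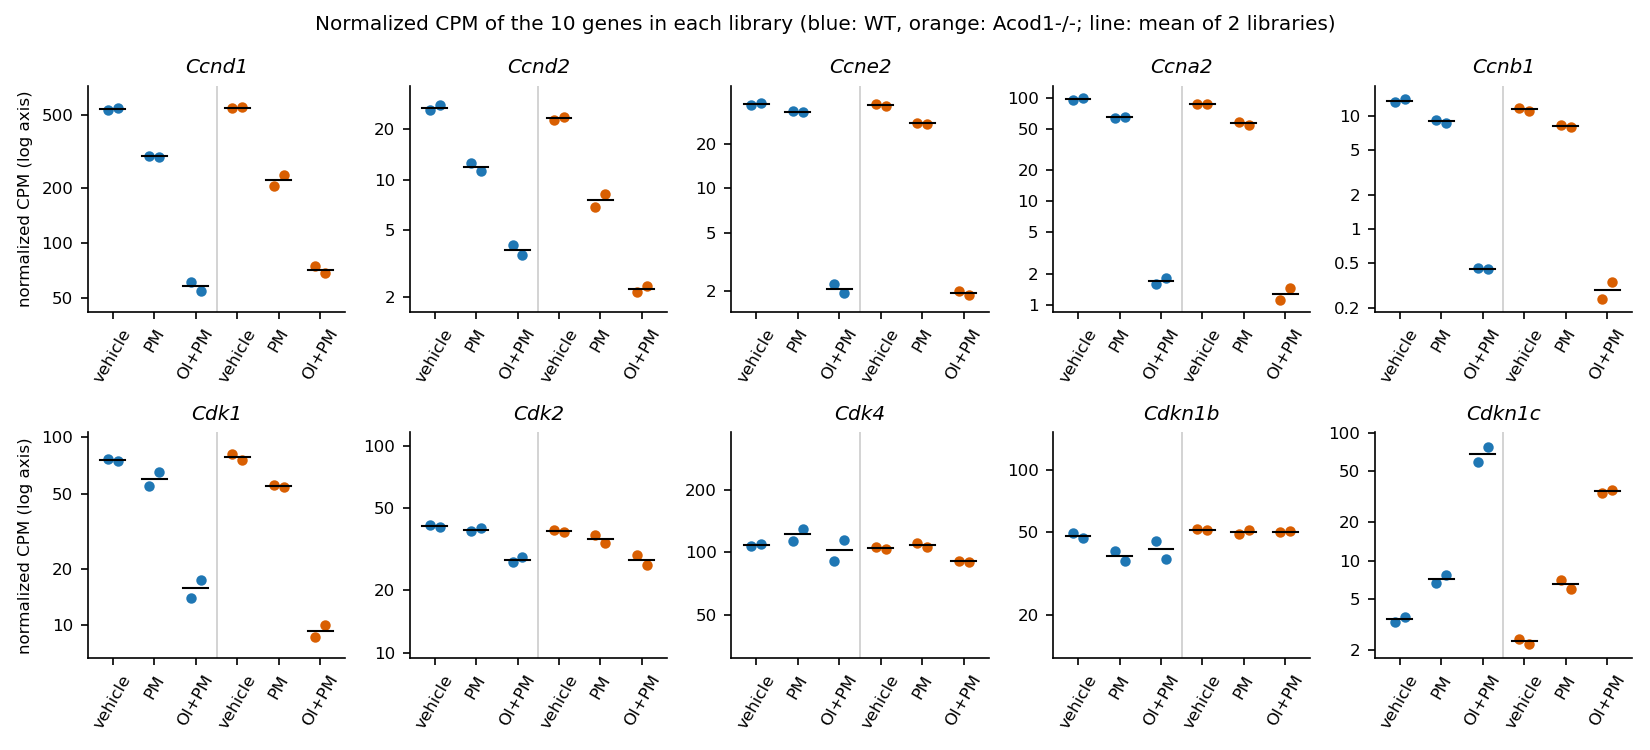
Normalized CPM (log axis, one panel per gene) of the 10 genes in each of the 12 libraries, with 2 points per group, WT in blue and Acod1-/- in orange, and a line at the mean. Ccne2, Ccna2 and Ccnb1 sit far lower in all 4 OI+PM libraries than in any other, Cdkn1c sits far higher, and Cdk4 and Cdkn1b stay within a narrow range.

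Ccna2, the cyclin of S phase and G2, had the largest fall of the 10 genes. It was at 95.05 and 100.3 CPM in WT with vehicle, 63.8 and 65.6 with PM, and 1.59 and 1.83 with OI+PM. In Acod1-/- cells it was at 86.5 and 86.7, then 58.6 and 55.1, then 1.11 and 1.45. All 4 OI+PM libraries lay far under all 8 others. OI lowered Ccna2 37.9-fold in WT, a log2 fold change of -5.25 ± 0.11 (SE, n = 2 against 2, adjusted p = 2.84e-09, edgeR), and 44.3-fold in Acod1-/- (-5.47 ± 0.11, adjusted p = 3.12e-09, edgeR). Only 19 of 11228 genes had a lower log2 fold change in WT, and 20 in Acod1-/-. Exons of Exosc9 on the other strand cover 12.5% of the exonic length of Ccna2, and since the handling of strand in the counting is not given, some Ccna2 counts may be of Exosc9. Exosc9 did not pass the test with OI in either genotype (log2 fold change of 0.20 in WT and 0.03 in Acod1-/-).

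Ccnb1, the cyclin of mitosis, was the rarest of the 10 after OI. Its levels were 13.3 and 14.3 CPM in WT with vehicle, 9.28 and 8.71 with PM, and 0.449 and 0.440 with OI+PM. The Acod1-/- libraries had 11.9 and 11.1, then 8.29 and 7.97, then 0.240 and 0.339. The last values rest on 8 to 15 counts per library, so the size of the fall is uncertain. The log2 fold change with OI was -4.33 ± 0.15 in WT (SE, adjusted p = 1.39e-08, edgeR) and -4.80 ± 0.16 in Acod1-/- (adjusted p = 1.14e-08, edgeR). All 4 OI+PM libraries were under the filter of 1.5 CPM for Ccnb1, so it was tested by virtue of the vehicle and PM libraries. Ccnb1 therefore had to be lower with OI, and its fall and p-values are a description. For Ccna2 the 2 Acod1-/- OI+PM libraries were under the filter and the 2 WT ones above it.

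Cdk1, the kinase that cyclin B1 activates, fell less than its partner. It stood at 76.8 and 75.1 CPM in WT with vehicle, 54.9 and 65.5 with PM, and 14.0 and 17.4 with OI+PM. In Acod1-/- cells the values were 81.6 and 76.1, 55.7 and 54.7, and 8.69 and 10.04. The Acod1-/- OI+PM libraries were the lowest of all 12 and did not overlap the WT ones. OI lowered Cdk1 3.84-fold in WT (log2 fold change of -1.94 ± 0.12, adjusted p = 7.63e-07, edgeR) and 5.89-fold in Acod1-/- (-2.56 ± 0.13, adjusted p = 1.40e-07, edgeR). The ratio of Ccnb1 to Cdk1, per kilobase, went from 0.155 to 0.222 over the 8 libraries without OI to 0.0295 to 0.0395 over the 4 with it. Ccnb1 had 8 to 15 counts per OI+PM library, was tested only through the libraries without OI and had to be lower. The contrast between Cdk1 and Ccnb1 and their ratio are therefore a description.

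Ccne2, a cyclin of S phase entry, fell with OI as Ccna2 did. Its values in WT were 37.1 and 38.5 CPM with vehicle, 33.7 and 33.1 with PM, and 2.22 and 1.93 with OI+PM. Those in Acod1-/- were 37.5 and 36.8, 28.2 and 27.4, and 1.98 and 1.88. The OI+PM libraries of the 2 genotypes overlapped. The fall with OI was 16.1-fold in WT (log2 fold change of -4.01 ± 0.09, adjusted p = 2.84e-09, edgeR) and 14.3-fold in Acod1-/- (-3.84 ± 0.09, adjusted p = 3.34e-09, edgeR). Ints8 on the other strand overlaps 17.4% of the exonic length of Ccne2, and was between 32.1 and 36.2 CPM in the 12 libraries.

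Its kinase partner Cdk2 moved little. Cdk2 was at 41.3 and 40.5 CPM in WT with vehicle, 38.8 and 39.8 with PM, and 27.4 and 29.0 with OI+PM, and at 39.1 and 38.4, 37.2 and 33.9, and 29.6 and 26.4 in Acod1-/-. The OI+PM libraries were under the PM libraries in both genotypes, by a log2 fold change of -0.48 ± 0.08 in WT (adjusted p = 0.000726, edgeR) and -0.34 ± 0.08 in Acod1-/- (adjusted p = 0.00645, edgeR). In Acod1-/- this call was lost without PM replicate 1 (adjusted p = 0.0609) or OI+PM replicate 2 (adjusted p = 0.0726). The ratio of Ccna2 to Cdk2 per kilobase was 2.40 to 3.77 in the libraries without OI and 0.0572 to 0.0961 in those with it, so the cyclin and the kinase it binds parted.

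The promoters of Cdk1 and Ccnb1 are shown because these genes fell together, and that of Cdk4 as one whose gene did not pass the test. Sequences are those of RefSeq on GRCm38.p6, 5′ to 3′ on the strand of the gene, from up to 250 bases before the RefSeq start of the gene. The table used held promoters for 5 of the 10 genes (Ccnb1, Cdk1, Cdk2, Cdk4 and Cdkn1b). Capitals mark matches on either strand to CCAAT, the box that the factor NF-Y binds, to TTTGAA, the cell cycle homology element that MuvB complexes bind, and to TTGGCGC or TTCGCGC, forms of the E2F site. Cdk1 lies at chr10:69352913-69353162 (minus strand), and its last 26 bases are inside the gene as GENCODE draws it. Ccnb1 is printed at chr13:100786571-100786736 (minus strand), without the 84 bases nearest the start, which GENCODE also puts in the gene. Cdk4 lies at chr10:127063285-127063534 (plus strand).
Cdk1: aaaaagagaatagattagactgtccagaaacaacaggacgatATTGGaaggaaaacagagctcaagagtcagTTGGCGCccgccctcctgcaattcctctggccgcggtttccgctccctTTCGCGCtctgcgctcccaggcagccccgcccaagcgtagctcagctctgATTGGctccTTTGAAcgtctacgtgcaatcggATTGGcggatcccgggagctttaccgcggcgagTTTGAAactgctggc
Ccnb1: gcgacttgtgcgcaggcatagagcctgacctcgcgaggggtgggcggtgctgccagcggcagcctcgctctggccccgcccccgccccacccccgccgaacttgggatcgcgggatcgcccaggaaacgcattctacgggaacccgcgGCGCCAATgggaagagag
Cdk4: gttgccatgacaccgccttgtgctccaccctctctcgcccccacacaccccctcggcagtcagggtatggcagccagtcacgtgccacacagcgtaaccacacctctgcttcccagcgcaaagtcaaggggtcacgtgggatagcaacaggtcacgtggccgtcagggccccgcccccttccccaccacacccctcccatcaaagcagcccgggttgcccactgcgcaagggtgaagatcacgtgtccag

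The Cdk1 window held 3 matches to CCAAT, 2 to TTTGAA and 2 to the E2F forms. The 250 bases of Ccnb1 held 2 matches to CCAAT, 1 of them in the bases not printed, and 1 to TTGGCGC on the other strand, which overlaps the CCAAT that is printed. Cdk4 held none of them, Cdk2 held 1 CCAAT and Cdkn1b held 2. Among 32851 promoter windows of the same length, 33.8% held a CCAAT, 16% a TTTGAA and 3.14% an E2F form. These are matches of letters, not sites shown to be bound.

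Ccnd1, the main D-type cyclin of these cells, fell in 2 steps. It stood at 534 and 549 CPM in WT with vehicle, 299 and 295 with PM, and 60.8 and 54.6 with OI+PM. In Acod1-/- cells it stood at 543 and 554, 205 and 234, and 74.4 and 68.0. The genotypes overlapped with vehicle, the Acod1-/- libraries were lower with PM, and they were higher with OI+PM. OI lowered Ccnd1 5.15-fold in WT (log2 fold change of -2.36 ± 0.08, adjusted p = 1.55e-08, edgeR) and 3.09-fold in Acod1-/- (-1.63 ± 0.08, adjusted p = 1.55e-07, edgeR). LTO1, which overlaps 23.4% of the exonic length of Ccnd1 on the other strand, was at 22.5 to 27.3 CPM throughout.

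Ccnd2, a second D-type cyclin, was far less abundant and followed the same order of treatments. The WT libraries had 25.8 and 27.7 CPM with vehicle, 12.5 and 11.2 with PM, and 4.10 and 3.55 with OI+PM. The Acod1-/- libraries had 22.6 and 23.7, 6.85 and 8.23, and 2.13 and 2.34. No pair of neighbouring groups in this order overlapped. The log2 fold change with OI was -1.63 ± 0.12 in WT (adjusted p = 3.18e-06, edgeR) and -1.75 ± 0.14 in Acod1-/- (adjusted p = 4.27e-06, edgeR). Per kilobase, Ccnd1 was 29.6 to 69.6 times as high as Ccnd2 over the 12 libraries.

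Cdk4, which D-type cyclins activate, did not follow them. Its levels were 106 and 110 CPM in WT with vehicle, 114 and 130 with PM, and 90.8 and 115 with OI+PM, and 105 and 104, 111 and 105, and 90.7 and 89.6 in Acod1-/-. The WT groups overlapped between PM and OI+PM, and the Acod1-/- groups did not. The log2 fold change with OI was -0.24 in WT (95% interval -0.48 to -0.01, adjusted p = 0.0839, edgeR) and -0.26 in Acod1-/- (95% interval -0.50 to -0.03, adjusted p = 0.0787, edgeR). It passed the test when libraries were scaled by total count alone (adjusted p of 0.00612 in WT and 0.0139 in Acod1-/-) and with a correction for gene length (0.00231 and 0.00546). It also passed in Acod1-/- in a fit of the compared groups alone (0.00129), and in WT without PM replicate 1 (-0.34, adjusted p = 0.0480) or without OI+PM replicate 2 (-0.42, adjusted p = 0.00200), while without OI+PM replicate 1 the WT value was -0.08. Tspan31 overlaps 19.7% of the exonic length of Cdk4 on the other strand and rose with OI in WT by 0.31 on the log2 scale (adjusted p = 0.0190, edgeR).

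The inhibitors parted from each other. Cdkn1c (p57), an imprinted gene, was the rarest of the 10 per kilobase with vehicle in both genotypes. It had 3.34 and 3.64 CPM in WT with vehicle, 6.66 and 7.75 with PM, and 59.2 and 77.5 with OI+PM, and 2.46 and 2.25, 7.09 and 6.04, and 34.0 and 35.9 in Acod1-/-. All OI+PM libraries lay above all others, and the WT ones lay above the Acod1-/- ones. OI raised Cdkn1c 9.48-fold in WT (log2 fold change of 3.25 ± 0.14, adjusted p = 6.83e-08, edgeR), the fifth highest log2 fold change of all genes tested, and 5.32-fold in Acod1-/- (2.41 ± 0.14, adjusted p = 5.87e-07, edgeR). The antisense gene Gm44732 overlaps 30.7% of the exonic length of Cdkn1c, and its level was at most 0.301 CPM in any library.

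Cdkn1b (p27) stayed in a narrow range. It was at 49.3 and 47.0 CPM in WT with vehicle, 40.8 and 36.2 with PM, and 45.5 and 37.1 with OI+PM, and between 49.1 and 51.6 CPM in the 6 Acod1-/- libraries. The log2 fold change with OI was 0.10 in WT (95% interval -0.11 to 0.32, adjusted p = 0.415, edgeR) and 0.01 in Acod1-/- (95% interval -0.21 to 0.22, adjusted p = 0.970, edgeR). Without WT OI+PM replicate 2 the WT value was 0.24 and passed as higher (adjusted p = 0.0373), and without WT OI+PM replicate 1 it was -0.05 and did not pass. Per kilobase, the ratio of Cdkn1c to Cdkn1b was 0.0984 to 0.173 with vehicle, 0.264 to 0.478 with PM, 2.91 and 4.66 in WT with OI+PM and 1.52 and 1.58 in Acod1-/- with OI+PM.

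Per kilobase, the order of the 10 genes changed with OI. Ccnd1 was first in both vehicle groups (115 ± 2.25 in WT and 116 ± 1.63 in Acod1-/-, mean ± SD, n = 2) and in both PM groups (63.0 ± 0.69 and 46.7 ± 4.35). In WT with OI+PM, Cdkn1c (33.5 ± 6.35) and Cdk4 (31.7 ± 5.25) came first and did not differ beyond their spread, and Ccnd1 was the third at 12.2 ± 0.93. In Acod1-/- with OI+PM, Cdk4 came first at 27.7 ± 0.24, Cdkn1c second at 17.1 ± 0.64 and Ccnd1 the third at 15.1 ± 0.95. Ccna2 was the third in the 4 groups without OI and the eighth in both groups with it.

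**Figure D2:**
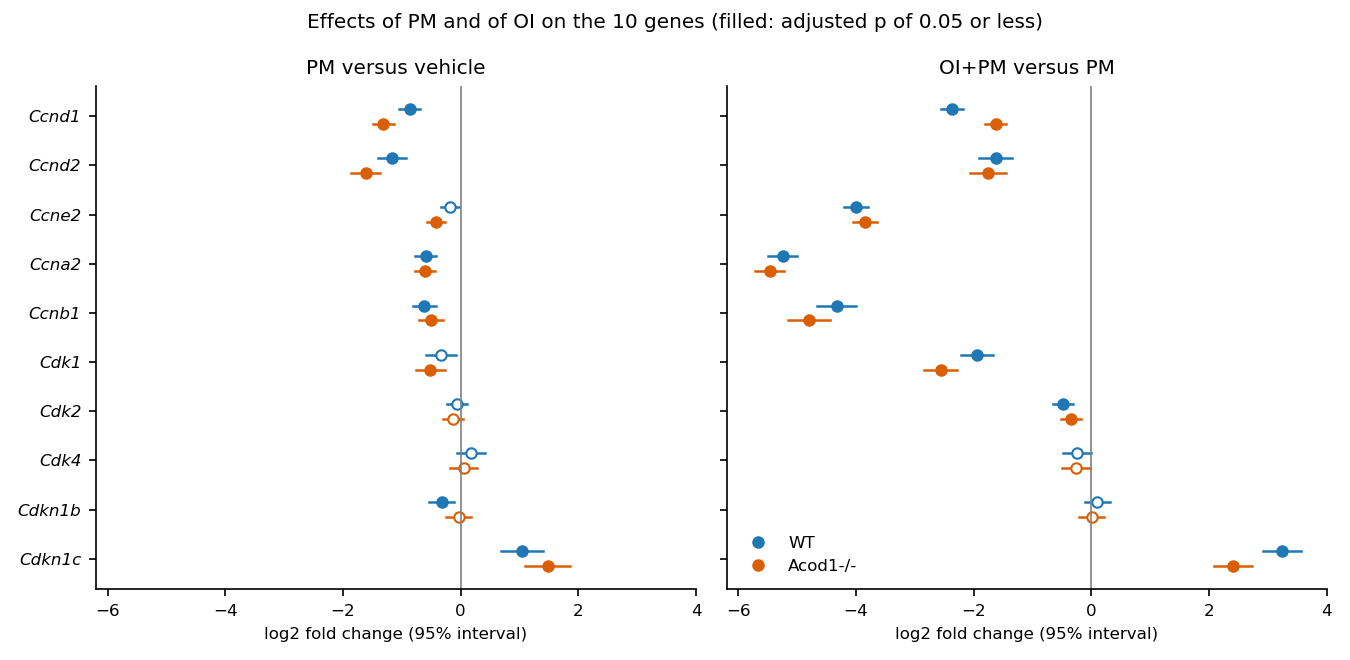
Log2 fold changes (points) with 95% intervals (lines) of the 10 genes for PM against vehicle (left) and OI+PM against PM (right), WT in blue and Acod1-/- in orange, filled where the adjusted p was 0.05 or less. With OI the points run from -5.47 for Ccna2 to 3.25 for Cdkn1c, and with PM from -1.62 for Ccnd2 to 1.48 for Cdkn1c.

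PM alone lowered Ccnd1 and Ccnd2 most and Ccna2 and Ccnb1 less, and it raised Cdkn1c, in both genotypes. In WT, 6 of the 10 genes passed the test, 5 lower and 1 higher, where 24.8% of all genes passed (12.2% lower and 12.6% higher). In Acod1-/-, 7 passed, 6 lower and 1 higher, where 23.9% of all genes passed (11.9% lower and 12% higher). As DEGs, 2 of the 10 were counted in WT and 3 in Acod1-/-, where 4.15% and 4.5% of all genes were. The 2 in WT, Ccnd2 and Cdkn1c, were near the limit of 1: with the length correction they had -0.99 and 0.85, and Cdkn1c had 0.95 under total count scaling, 0.98 without vehicle replicate 1 and 0.93 without PM replicate 2, all still past the test. The log2 fold change with PM also followed exonic length over 11214 genes (Spearman's rho of -0.46 in WT and -0.40 in Acod1-/-, across genes, as a description), and Ccnd2 has 9409 exonic bases and Cdkn1c 2039. Ccnd2 had log2 fold changes of -1.17 ± 0.11 in WT and -1.62 ± 0.11 in Acod1-/-, and Ccnd1 of -0.87 ± 0.08 and -1.32 ± 0.08 (all with an adjusted p of 4.08e-05 or less, edgeR). Ccna2 had -0.59 and -0.61, and Ccnb1 -0.62 and -0.50, all past the test. Cdkn1c rose by a log2 fold change of 1.04 ± 0.16 in WT (adjusted p = 0.00135, edgeR) and 1.48 ± 0.17 in Acod1-/- (adjusted p = 0.000199, edgeR).

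Among the remaining genes, Ccne2, Cdk1 and Cdkn1b passed the test with PM in 1 genotype each. Ccne2 was lower in Acod1-/- (log2 fold change of -0.42, adjusted p = 0.00167, edgeR) and had -0.18 in WT, which did not pass (adjusted p = 0.0854) but passed under total count scaling (0.0263) and with the length correction (0.0183). Cdk1 was lower in Acod1-/- (-0.51, adjusted p = 0.00858, edgeR), a call lost without vehicle replicate 1 (adjusted p = 0.0746), PM replicate 1 (0.0569) or PM replicate 2 (0.0582). Its -0.34 in WT did not pass (adjusted p = 0.0545), but it passed by DESeq2 (0.0167), under RLE (0.0400) or total count scaling (0.0126), with the replicate block (0.0412), with the length correction with or without the block (0.0272 and 0.0385), and without PM replicate 2 (0.0395). Cdkn1b was lower in WT (-0.32, adjusted p = 0.0366, edgeR), a call lost without either vehicle library or without PM replicate 2, and had -0.03 in Acod1-/-. Cdk2 and Cdk4 did not pass in either genotype, with log2 fold changes of -0.12 to 0.17.

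Set against vehicle, the log2 fold change of OI+PM is by construction the sum of both steps. In each genotype 8 of the 10 genes passed the test, 7 lower and 1 higher. Of all genes, 65.5% passed in WT (31.9% lower and 33.6% higher) and 49.4% in Acod1-/- (26.7% lower and 22.7% higher). The 7 include Ccnb1, which was tested only through the libraries without OI and had to be lower, so this count is a description. The log2 fold changes in WT and Acod1-/- were -5.84 and -6.08 for Ccna2, -4.94 and -5.30 for Ccnb1, -4.18 and -4.26 for Ccne2, -3.23 and -2.95 for Ccnd1, -2.80 and -3.37 for Ccnd2, and -2.27 and -3.07 for Cdk1. Cdk2 had -0.54 and -0.47, and Cdkn1c had 4.29 and 3.89. Cdk4 and Cdkn1b were the genes that did not pass (adjusted p of 0.0679 or more, edgeR). In WT both passed as lower under total count scaling (adjusted p of 0.0132 and 0.00836) and with the length correction (0.00902 and 0.0369), and each passed without 1 OI+PM library, Cdk4 without replicate 2 (0.0252) and Cdkn1b without replicate 1 (0.00203). In Acod1-/- Cdk4 passed as lower under total count scaling (0.00622), with the length correction (0.00259) and in a fit of the compared groups alone (4.65e-05).

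Between genotypes the 10 genes differed little with vehicle. None passed the test in that comparison (edgeR), where 1.83% of all genes passed, and 2 had an unadjusted p of 0.05 or less (10.2% of all genes), Ccnb1 at a log2 fold change of -0.26 and Cdkn1c at -0.57. By DESeq2 none passed, and in a fit of those 4 libraries alone Ccnd2, Ccna2, Ccnb1 and Cdkn1c passed, all lower in Acod1-/-. With PM, 2 genes passed, where 2.4% of all genes passed (1.3% lower): Ccnd1 was lower in Acod1-/- by -0.43 ± 0.08 on the log2 scale (adjusted p = 0.0202, edgeR) and Ccnd2 by -0.65 ± 0.11 (adjusted p = 0.0160, edgeR). Both calls were lost without WT PM replicate 1 or without Acod1-/- PM replicate 1, and that of Ccnd1 also without WT PM replicate 2, under total count scaling (adjusted p = 0.0536) and in a fit of the compared groups alone (0.0611). Cdkn1b, higher in Acod1-/-, passed by DESeq2 (0.0267) and with the length correction (0.0352). None of the 10 was a DEG between genotypes with PM or with OI+PM, where 0.561% and 0.917% of all genes were.

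With OI+PM, 3 genes passed between genotypes, where 6.96% of all genes passed (4.45% lower), and all 3 were lower in Acod1-/-. Cdkn1c differed by -0.97 ± 0.13 on the log2 scale (adjusted p = 0.00319, edgeR), Ccnd2 by -0.78 ± 0.15 (adjusted p = 0.0165, edgeR) and Cdk1 by -0.75 ± 0.13 (adjusted p = 0.0115, edgeR). Ccnd1 went the other way, at 0.30 ± 0.08, and did not pass (adjusted p = 0.0519, edgeR), but passed by DESeq2 (0.0205) and under total count scaling (0.0498). The 3 calls of lower genes were lost in a fit of the compared groups alone (adjusted p of 0.203 or more) and without Acod1-/- OI+PM replicate 1, those of Ccnd2 and Cdk1 also without Acod1-/- OI+PM replicate 2, and 6 genes passed without WT OI+PM replicate 1. Over 11214 genes this genotype difference also followed exonic length (Spearman's rho of 0.41, across genes, as a description). With a correction for gene length, Cdkn1c, Ccnd2 and Cdk1 had -0.81, -0.89 and -0.75 and Ccnd1 had 0.31 (adjusted p = 0.0238), and all 4 passed.

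The test of whether OI acted differently in the genotypes gave no gene past the threshold by edgeR, among the 10 or among all 11228, where 717 genes (6.39%) and 3 of the 10 had an unadjusted p of 0.05 or less. DESeq2 gave 34 genes, Ccnd1 among them. The effect of OI on Ccnd1 was smaller in Acod1-/- by 0.74 ± 0.11 on the log2 scale (adjusted p = 0.121, edgeR, and 0.000105, DESeq2). For Cdkn1c the rise was smaller by a difference of -0.83 ± 0.20 (adjusted p = 0.407, edgeR), and for Cdk1 the fall was larger by a difference of -0.62 ± 0.17 (adjusted p = 0.567, edgeR). With the length correction, Ccnd1 and Cdkn1c passed (adjusted p of 0.0416 each). Without WT OI+PM replicate 1, all 3 passed (adjusted p of 0.0141, 0.0181 and 0.0373), and the 2 libraries of that group were those that differed most. For PM no gene passed either, with 273 genes (2.43%) and 3 of the 10 at an unadjusted p of 0.05 or less (edgeR), and 3 genes, none of the 10, by DESeq2.

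**Figure D3:**
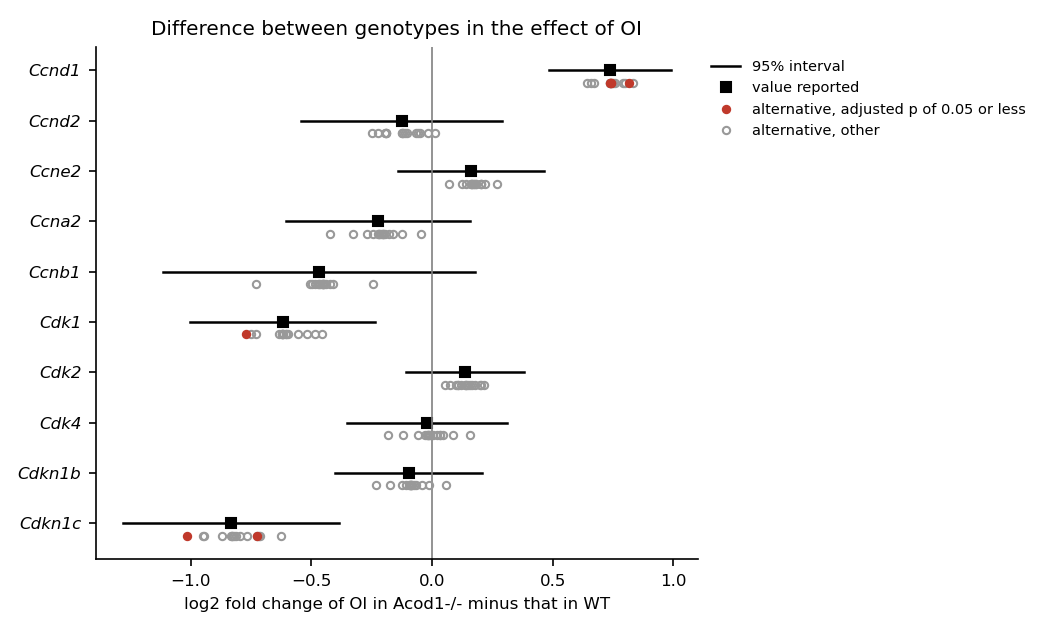
Log2 fold change of OI in Acod1-/- minus that in WT for the 10 genes, with the value reported (squares), its 95% interval (lines) and the values under other settings (circles, red where the adjusted p was 0.05 or less). Ccnd1 lies above 0 and Cdk1 and Cdkn1c below it under every setting shown, and the other 7 intervals include 0.

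Other genes of the cell cycle were read from lists of related genes, against 22.6% of all genes lower and 21.3% higher with OI in WT, and 20.6% and 13.9% in Acod1-/-. Of the 59 list genes tested, 9 (Ccnb2, Cdkn3, E2f7, E2f8, Cdc25c, Cdc20, Ube2c, Mybl2 and Foxm1) had fewer than 2 OI+PM libraries above the filter of 1.5 CPM. They were tested only through the libraries without OI, so they had to be lower with OI, and the counts of lower genes that include them are a description. All 4 other cyclins tested fell with OI in both genotypes, out of 6 listed. Ccnb2, a mitotic cyclin, had log2 fold changes of -3.85 in WT and -4.60 in Acod1-/-, Ccne1 of S phase entry had -1.78 and -2.09, and Ccnf had -1.31 and -1.67. Ccnd3, a D-type cyclin, fell least, by -0.53 and -0.69 (adjusted p of 0.00404 and 0.000956, edgeR). Of 4 other CDKs and members of the CDK-activating kinase tested, 1 was lower in each genotype, a share near that of all genes, Cdk6 at -0.89 and -0.76. Higher were 2 in WT and 1 in Acod1-/-, and Cdk7, named after its values were seen, was higher in both at 0.43 and 0.42.

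Among 6 other CDK inhibitors, 3 were lower in each genotype and 2 were higher in WT and 1 in Acod1-/-. The shares over all genes were 22.6% lower and 21.3% higher in WT, and 20.6% and 13.9% in Acod1-/-. Cdkn1a (p21), the remaining CIP/KIP gene, was at 309 and 337 CPM in WT with PM and 402 and 473 with OI+PM, which passed the test (log2 fold change of 0.44, adjusted p = 0.00123, edgeR). In Acod1-/- it was at 290 and 281, then 306 and 313, and did not pass (0.12, adjusted p = 0.290, edgeR). The difference between genotypes in the effect of OI on Cdkn1a did not pass the test by edgeR. Cdkn2b (p15), which blocks Cdk4 and Cdk6, rose by 1.90 and 1.77. Cdkn2c (p18) fell by 1.62 and 1.52 on the log2 scale, and Cdkn3, a phosphatase that acts on CDKs and peaks in dividing cells, fell by 2.99 and 4.15, with 7 to 24 counts per OI+PM library. Cdkn3 was tested only through the libraries without OI and had to be lower, so the count of lower inhibitors is a description.

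The RB and E2F family links CDK activity to S phase genes. Of 13 genes tested, 7 were lower and 3 higher in WT, and 6 were lower and 2 higher in Acod1-/-, the higher ones being a share near that of all genes. The share of all genes that was lower was 22.6% in WT and 20.6% in Acod1-/-. Rb1 had 0.05 and 0.14 and did not pass, and the activator E2f1 was lower at -0.62 and -0.61. E2f2 was lower at -1.14 and -1.96 and E2f8 at -4.00 and -3.54. E2f7, a repressor that is itself an E2F target, had 198 to 260 counts in the 4 PM libraries and 2 to 6 in the 4 OI+PM libraries. E2f7 and E2f8 were tested only through the libraries without OI and had to be lower, so the counts of lower genes here are a description.

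Genes that switch CDKs by phosphorylation, with the CDK subunit Cks1b, were lower in 6 of 6 tested in each genotype, of 7 listed. The shares over all genes were 22.6% lower and 21.3% higher in WT, and 20.6% and 13.9% in Acod1-/-. They included Cdc25c (-3.58 and -4.47, with 5 to 13 counts per OI+PM library), Cdc25b (-1.54 and -1.62), Pkmyt1 (-1.88 and -1.95) and Cks1b (-1.45 and -1.46). Of 8 genes of the ubiquitin ligases that remove cyclins and inhibitors, 5 were lower in each genotype, and 1 was higher in WT. Ube2c (-4.24 and -4.85), Cdc20 (-3.35 and -3.33) and Fbxo5 (-2.47 and -2.45) fell most, with 29 to 41 counts per OI+PM library for Ube2c and 33 to 52 for Cdc20. Of 7 genes of MuvB, MYB and FOXM1, which switch on the mitotic genes, 4 were lower in each genotype and none was higher, with Foxm1 at -3.82 and -4.04 and Mybl2 at -3.60 and -4.78, on 37 to 59 and 5 to 23 counts per OI+PM library. Cdc25c, Ube2c, Cdc20, Foxm1 and Mybl2 were tested only through the libraries without OI and had to be lower. The counts of lower genes that include them are therefore a description.

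Of 6 genes upstream of the D-type cyclins, which carry growth factor signals to them, 2 were lower and 2 higher in each genotype. Of all genes, 22.6% were lower and 21.3% higher in WT, and 20.6% and 13.9% in Acod1-/-. Csf1r, the receptor of M-CSF, was lower at -0.30 and -0.49, and the transcription factor Ets2 at -0.81 and -0.74, both named after their values were seen. Fosl1, a partner of Jun, rose by 1.87 and 1.70. Myc had 0.18 in WT, which did not pass (adjusted p = 0.101, edgeR), and rose by 0.54 in Acod1-/- (adjusted p = 0.000576, edgeR). Its difference between genotypes in the effect of OI did not pass the test by edgeR. Of 5 markers of cycling cells, 4 were lower in each genotype: Mki67 (-4.24 and -4.33), Top2a (-4.12 and -4.42), Mcm5 (-3.93 and -3.65) and Mcm2 (-2.19 and -1.98). The fifth, Pcna, named after its values were seen, had -0.04 and 0.11 and did not pass.

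**Figure D4:**
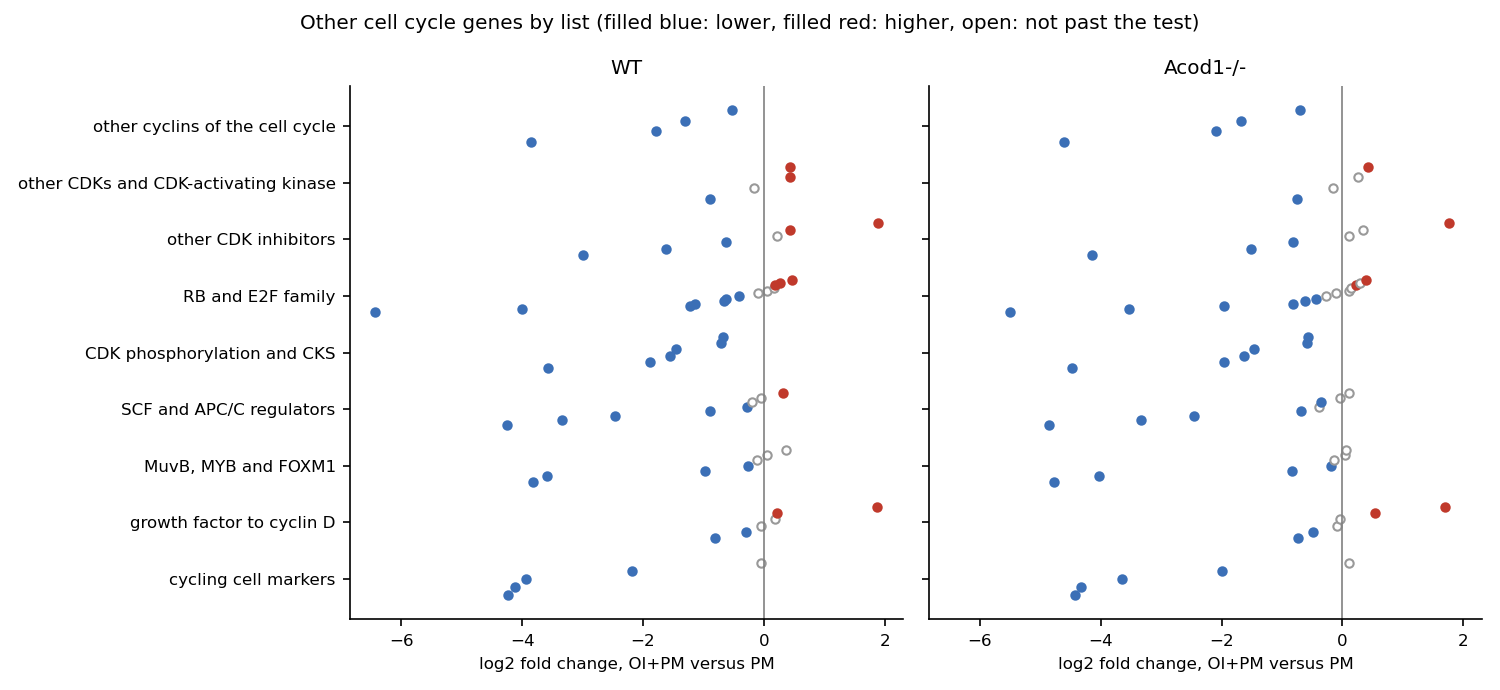
Log2 fold change of OI+PM against PM for each gene of 9 lists of cell cycle genes, in WT (left) and Acod1-/- (right), filled blue where lower and red where higher at an adjusted p of 0.05 or less, and open otherwise. The other cyclins and the genes of CDK phosphorylation all lie below 0, and the leftmost point is E2f7, which had 2 to 6 counts per OI+PM library. Ccnb2, Cdc25c and E2f7 are among the genes that were tested only through the libraries without OI and had to be lower.

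No gene of the 9 lists was a DEG with PM in either genotype, where 4.15% of all genes were in WT and 4.5% in Acod1-/-. Of the 5 markers of cycling cells, 3 were lower in each genotype, where 12.2% and 11.9% of all genes were, with Mki67 at -0.86 and -0.78, and 1 of the 4 other cyclins, Ccnb2, was lower at -0.76 and -0.69. Ccne1 (0.15 and -0.15) and Ccnd3 (0.17 and 0.07) did not pass.

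The markers of macrophages and of other cells differed between treatments as well. The summed level of 7 macrophage markers was 14269 to 14431 CPM in WT with vehicle, 22954 to 26505 with PM and 14310 to 16447 with OI+PM, and 13998 to 14087, 24152 to 26966 and 14875 to 15260 in Acod1-/-. Lyz2, at 9084 to 21225 CPM over the libraries, made up most of this sum, which therefore says little of the other macrophage markers. The summed level of 5 neutrophil markers was 4.86 to 5.50 CPM in WT with vehicle, 11.3 to 17.5 with PM and 29.3 to 61.0 with OI+PM, and 32.7 to 33.6 in Acod1-/- with OI+PM. Most of it was S100a8, which stimulated macrophages also make, while Ly6g had at most 1 count and Mpo and Elane at most 7 and 4 in any library. The summed level of the progenitor markers Cd34 and Kit was 0.914 to 1.01 CPM in WT with PM and 0.237 to 0.270 with OI+PM, and 0.676 to 1.61 and 0.301 to 0.493 in Acod1-/-. That of 4 fibroblast markers was 0.743 to 0.922 CPM in WT with PM and 0.169 to 0.419 with OI+PM, and 1.15 to 1.44 and 0.277 to 0.782 in Acod1-/-. Their part in the results for the 10 genes was not tested.

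The genes most like each of the 10 were found by Pearson's r of log2 CPM over the 12 libraries, among 9571 genes with a mean of at least 5 CPM. These are descriptions over libraries that share 6 groups. Ccna2 was most like Nuf2 and Kif4, both of the mitotic spindle, and Ccnb1 (r of 0.999 each). Ccne2 was most like Clspn, Esco2 and Lig1, all of DNA replication and sister chromatid cohesion (r of 0.999 each). Cdk1 was most like Ccnf, Kif23 and Ezh2 (0.994 to 0.995), and Ccnb1 like Ccna2, Kif2c and Nuf2 (0.999 each). Ccnd1 was most like Zranb3, Lbh and Bank1 (0.993 to 0.995), and Ccnd2 like Havcr2, Nrcam and Nlrc3 (0.990 to 0.992), so neither D-type cyclin had a mitotic gene among its 3 nearest. Cdkn1c was most like Pnpla2, the lipase that starts the release of fatty acids from lipid droplets, Abhd4 and Tmbim1 (0.995 to 0.998). Cdkn1b was most like Sik1, 0610030E20Rik and Rabgap1 (0.952 to 0.977), Cdk2 like 1700025G04Rik, Nde1 and Traf3ip3 (0.981 to 0.988), and Cdk4 like Ap5s1, Ldha and Rnaseh2b (0.973 to 0.979).

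The 10 genes lie apart in the genome of GRCm38, except that Ccnd1 (chr7:144929931-144939925) and Cdkn1c (chr7:143458339-143461050) share a chromosome, as do Ccnd2 (chr6:127125162-127152193) and Cdkn1b (chr6:134920401-134925513). The kinases Cdk1 (chr10:69335146-69352938), Cdk2 (chr10:128697939-128705031) and Cdk4 (chr10:127063534-127067920) also share one. Ccne2 is at chr4:11191351-11204779, Ccna2 at chr3:36564865-36572150 and Ccnb1 at chr13:100778650-100786570. No annotated gene overlapped the exons of Ccnb1, Cdk1 or Cdkn1b.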

How the data were processed

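The authors prepared libraries from total RNA, mapped single-end reads to GRCm38 with STAR (version 2.5.3a in the submitters' processing notes) and deposited raw counts per gene from featureCounts. The annotation release and the handling of strand and of reads with several places are not given in the sources used here. The counts were used as deposited. Genes above 1.5 CPM in at least 2 of 12 libraries were kept. Counts were scaled by TMM and fitted in edgeR 4.0.16 (R 4.3.3) by quasi-likelihood, with a mean for each of 6 groups and no replicate block, and p-values were adjusted by Benjamini-Hochberg over 11228 genes. SEs are those implied by the F test (size of the estimate over the root of F). Fits were tested on simulated data. Positions and exonic lengths came from GENCODE vM21, and promoters from RefSeq. GENCODE matched 48435 of 48795 identifiers with the version number left off, and 41427 with the same version, so some exonic lengths may be of another gene model. Symbols came from a separate list of gene names, or from GENCODE where that list had none. The 10 genes, the gene lists and the markers were chosen with earlier results of these data known. Named from the lists were genes that were DEGs with OI in both genotypes, at most 5 per list, and 9 set genes (Cdkn1a, Ccnd3, Ccne1, Ccnb2, Cdk6, Rb1, E2f1, Myc and Mki67). Outside this rule, Cdk7, Csf1r, Ets2 and Pcna were named after their values were seen. Alternatives were DESeq2 1.42.0, scaling by RLE or by total count, a filter of at least 10 counts over all libraries, a gene length correction (a lowess curve, span 0.3), a replicate block, fits of the compared groups alone, the DEG rule, and each library left out.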

Additional observations from a re-analysis of the deposited data

How the results depend on the processing

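In OI+PM against PM, the counts of the 10 genes past the test stayed within 1.5 times the reported 8 in both genotypes under every alternative run (7 to 10 in WT, 7 to 9 in Acod1-/-), and Ccnd1, Ccnd2, Ccne2, Ccna2, Ccnb1, Cdk1 and Cdkn1c kept their calls and directions there. Over all comparisons, alternatives gave 1410 values for the 10 genes: 1294 kept direction and side of the threshold, 58 came to pass, 23 no longer passed and 35 changed sign, none of the last for a gene that passed. The cause of these changes was not tested. Ccnb1 was tested only through the libraries without OI, so its lower calls with OI are a description under these alternatives too.

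With the DEG rule the counts fell to 2 and 3 for PM in WT and Acod1-/-, and to 0 between genotypes with PM and with OI+PM. Between genotypes with vehicle the count rose from 0 to 1 with the gene length correction, with or without the replicate block, and to 4 in the compared groups alone. With PM it fell from 2 to 1 under total count scaling and in the compared groups alone. With OI+PM it rose from 3 to 5 with length correction and replicate block and fell to 0 in the compared groups alone. For the interaction with OI it rose from 0 to 1 by DESeq2, 2 with length correction and 1 with length correction and replicate block. Leaving out single libraries gave 0 to 2 genes between genotypes with PM, 0 to 6 with OI+PM and 0 to 3 for the interaction with OI.

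The signs that changed belonged to log2 values near 0. For Cdkn1b with OI these were -0.023 in WT and -0.063 in Acod1-/- under total count scaling, and -0.00010 in Acod1-/- with length correction and replicate block, with ranges of -0.052 to 0.24 and -0.021 to 0.034 over single libraries left out. For PM, Cdk2 in WT had 0.0289 with length correction and 0.0290 with the block too, and Cdk4 in Acod1-/- had -0.0315, -0.0225 and -0.0224 under total count scaling, length correction, and both length correction and block. Between genotypes with OI+PM, Cdk2 had 0.0041 by DESeq2, 0.0038 by RLE, 0.0655 by total count scaling, 0.0091 with the filter of 10 counts and 0.0140 in the compared groups alone, and -0.0931 to 0.0723 over libraries left out. For the interaction with OI, Cdk4 had 0.0450 by total count scaling, 0.0323 with length correction, 0.0327 with the block too, 0.0023 in the compared groups alone and -0.181 to 0.159 over libraries left out. Leaving out libraries also gave -0.25 to 0.0897 for Cdk4 in OI+PM against vehicle in WT, -0.0018 to 0.0381 for Ccnd1 and -0.0511 to 0.00022 for Ccne2 between genotypes with vehicle, -0.25 to 0.0074 for Cdk1 with PM and -0.20 to 0.0027 for Ccne2 with OI+PM, and for the interactions -0.234 to 0.0581 (Cdkn1b, OI), -0.251 to 0.013 (Ccnd2, OI) and -0.0592 to 0.0295 (Ccna2, PM).

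The replicate numbers are not said to mark a shared mouse or culture, so they served only as an alternative. Deviations of same-numbered libraries correlated at 0.73 between WT with PM and WT with OI+PM, and at -0.09 for the same pair in Acod1-/-. The replicate block alone gave 8, 8, 7 and 7 genes for OI and PM in WT and Acod1-/- in turn, and changed no count by over 1.5 times. Between genotypes with PM the correlation was -0.41, and crossing the numbers, chosen after seeing the data, gave 4 genes. Under total count scaling the median of all genes was -0.11 with OI in WT (0.02 under TMM), and -0.21 in WT and -0.15 in Acod1-/- for OI+PM against vehicle (0.02 and -0.01 under TMM). With 2 libraries per group the SDs are imprecise, a library left alone is assumed to vary like the other groups, and Ccnb1 after OI rests on 8 to 15 counts.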
